A study of Mus musculus with 4 samples.

Results

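The 9 genes described here encode transcription factors that drive the epithelial-to-mesenchymal transition (EMT) or mark mesenchymal identity: Snai1, Snai2, Twist1, Twist2, Zeb1, Zeb2, Prrx1, Prrx2 and Tcf4. Every probe set that the platform annotation pairs with exactly 1 of these symbols was taken, which gave 27 probe sets of the 9 genes, of 18193 genes named on the array. Cultured mesenchymal stem cells (MSC) of C57BL/6 mice were compared, 2 lines from bone marrow and 2 from flushed colon, with 1 Affymetrix array per line. Both kinds of line were obtained with collagenase and adherence to plastic. They were kept in a low-glucose medium that held 10% serum, and RNA was taken from passage 5 to passage 10. Neither the age nor the sex of the mice, nor whether a line is a clone, is given in the sources used here. Passage number was not given for each line, and its part in any difference was not tested.

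In EMT, epithelial cells lose their junctions and take up the shape and gene expression of mesenchyme, and mesenchymal cells keep several of the factors that drive this change. Snail, Slug (the product of Snai2) and the ZEB proteins are zinc finger repressors that bind E-box sites in epithelial genes such as Cdh1. Twist1, Twist2 and Tcf4 are basic helix-loop-helix (bHLH) proteins, which bind E-boxes as dimers. Tcf4 here is the E protein E2-2 and not Tcf7l2, the Wnt effector that is often called TCF4. Prrx1 and Prrx2 are paired-type homeobox proteins of embryonic limb and head mesenchyme.

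The clearest pattern lay within the colonic lines and not between the tissues. Prrx1 and Prrx2 had strong signals on both bone marrow arrays and in colonic replicate 1, and signals at least 14.6-fold lower in colonic replicate 2. Tcf4 and Snai2 were at lower intensities in both colonic lines than in both bone marrow lines, by about 1.52-fold to 2.20-fold in the means. Twist2 was at higher intensities in both colonic lines, and Twist1, Zeb1 and the brightest probe set of Zeb2 overlapped between the tissues.

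Colonic replicate 2 thus stands apart for the Prrx genes, and results that rest on it are given with and without it. Array medians lay between 53.6 and 55.5. Over all probe sets log2 intensities correlated at 0.973 between the bone marrow lines and 0.967 between the colonic lines. Across tissues, colonic replicate 2 correlated at 0.970 and 0.966 with bone marrow replicates 1 and 2, and colonic replicate 1 at 0.965 and 0.953. The intensity scale is arbitrary, and the level of a probe set says nothing of its amount relative to another. Values were set on a scale of log2(intensity + 13.6), and 23 of the 27 probe sets had a mean intensity above 33.3, the 40th percentile of all means, and were tested. The other 4, of Zeb1, Zeb2 and Prrx1, held values between 1 and 35.3 and were not tested.

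With limma over 27022 probe sets, 0 of the 23 passed an adjusted p of 0.05, as did 0% of all probe sets, and the lowest adjusted p among them was 0.459. Lower intensity in colonic MSC reached an unadjusted p below 0.05 in 5 of the 23, beside 2.47% of all probe sets, and higher intensity in 0, beside 3.16%. The tissues' arrays did not overlap in 11 members that were lower in colon and in 2 that were higher, beside 15.5% and 17.9% of all probe sets. With a mean difference of at least 1 on the log2 scale as well, 5 were lower, beside 2.36%, and 1 was higher, beside 3.46%. The median log2 difference was -0.71 over the 23 and 0.0031 over all probe sets tested. Probe sets of 1 gene share the same RNA, so these counts are not counts of independent results.

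**Figure D1:**
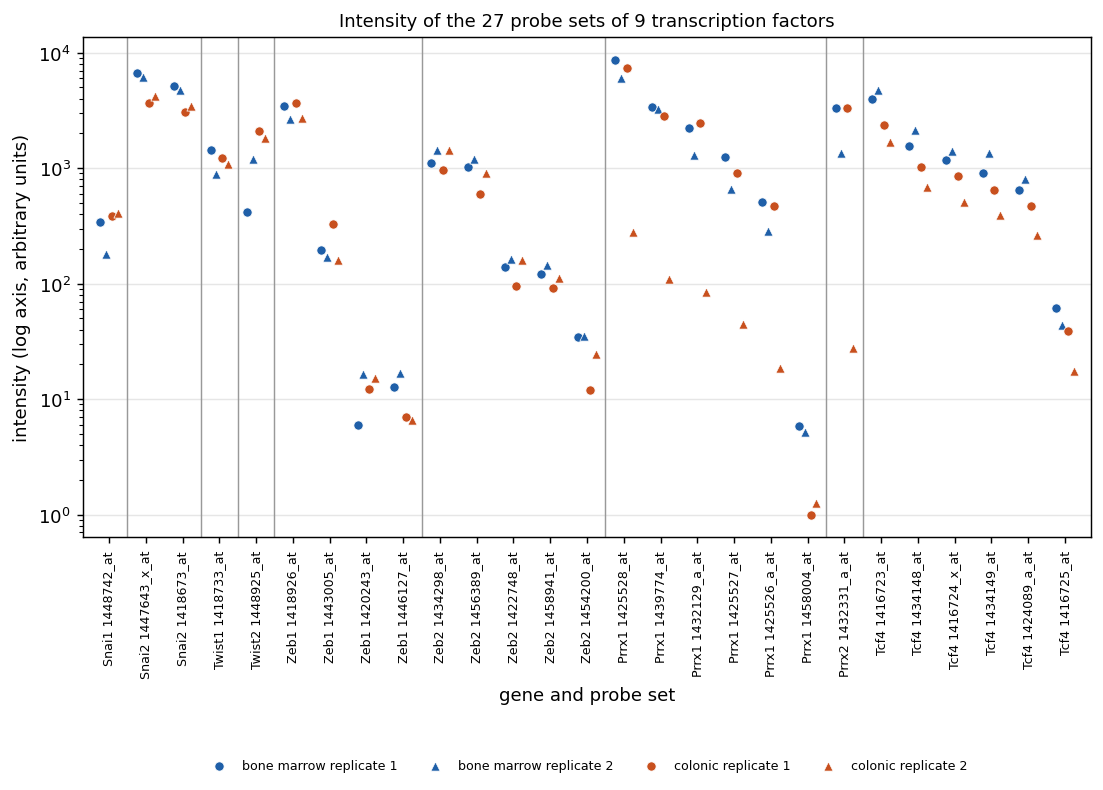
Intensity (log axis, arbitrary units) of each of the 27 probe sets on the 4 arrays, grouped by gene, with bone marrow lines in blue, colonic lines in orange, circles for replicate 1 and triangles for replicate 2. The orange triangles of the 5 bright Prrx1 probe sets and of Prrx2 lie between 18.8 and 278, far below the other 3 arrays, while the 6 Tcf4 probe sets have both orange points below both blue ones.

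Prrx1 had 5 tested probe sets. The brightest, 1425528_at, was at 8707 and 6022 in bone marrow replicates 1 and 2, at 7326 in colonic replicate 1 and at 278 in colonic replicate 2. The next, 1439774_at, was at 3383 and 3243 in the bone marrow lines and at 2841 and 109 in colon. Only the second colonic array was low in either probe set, and the other 3 arrays lay within 1.45-fold and 1.19-fold of each other.

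The 3 remaining bright probe sets of Prrx1 also had colonic replicate 2 as the lowest array. Probe set 1432129_a_at was at 2209 and 1303 in the bone marrow lines and at 2443 and 85.5 in colon. Probe set 1425527_at was at 1260 and 659 in the bone marrow lines and at 913 and 45.1 in colon. The dimmest tested, 1425526_a_at, was at 511 and 286 in the bone marrow lines and at 470 and 18.8 in colon. In each of the 5, colonic replicate 1 exceeded colonic replicate 2 by 20.2-fold to 28.6-fold, and the lowest of the other 3 arrays exceeded it by 14.6-fold to 26.1-fold. Probe sets 1425526_a_at, 1425527_at and 1425528_at carry the same sequence record in the annotation, and the suffix _a_at marks probe sets that match several transcripts of a gene.

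Prrx2, the paralogue of Prrx1, has 1 probe set on the array. It was at 3297 and 1341 in the bone marrow lines, at 3309 in colonic replicate 1 and at 27.7 in colonic replicate 2. Colonic replicate 1 was 119-fold above colonic replicate 2, and the other 3 arrays lay within 2.47-fold of each other. Both Prrx genes were thus low on the same array. Colonic replicate 2 was at least 4-fold below each other array in 6 of the 6 tested Prrx probe sets, beside 0.429% of all probe sets, a rule chosen after the values were seen.

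As a difference between tissues the Prrx values did not pass. The log2 differences of Prrx1, colonic minus bone marrow, lay between -2.49 and -1.66, with standard errors (SE) of 1.33 to 1.56 and a limma adjusted p of 0.990. Prrx2 had -2.51 ± 2.13 (SE), again with a limma adjusted p of 0.990, and a 95% interval from -8.10 to 3.07. Without colonic replicate 2 the differences lay between -0.22 and 0.52 for Prrx1 and at 0.65 for Prrx2. Without colonic replicate 1 they lay between -4.76 and -3.61 for Prrx1 and at -5.68 for Prrx2, which restates the low values of colonic replicate 2. In that fit the lone colonic array is assumed to vary like the bone marrow arrays, so it cannot show a difference between tissues. In cultures measured in bulk, fewer cells with a transcript and less transcript per cell cannot be told apart.

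The 250 bases before the annotated starts of Prrx1 and Prrx2 (RefSeq, GRCm38.p6) are shown because these paralogues were low together in the same line. Each promoter was searched for TAATTA, a core read by many homeobox proteins, which is its own reverse complement, and for the E-box CAGGTG, read as CACCTG on the other strand. Capitals mark a match.
Prrx1, chr1:163313651-163313900, minus strand: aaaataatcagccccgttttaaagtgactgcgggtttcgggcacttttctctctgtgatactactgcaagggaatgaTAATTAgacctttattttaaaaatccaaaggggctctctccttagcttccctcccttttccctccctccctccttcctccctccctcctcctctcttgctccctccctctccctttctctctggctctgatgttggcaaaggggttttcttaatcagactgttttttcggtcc
Prrx2, chr2:30845117-30845366, plus strand: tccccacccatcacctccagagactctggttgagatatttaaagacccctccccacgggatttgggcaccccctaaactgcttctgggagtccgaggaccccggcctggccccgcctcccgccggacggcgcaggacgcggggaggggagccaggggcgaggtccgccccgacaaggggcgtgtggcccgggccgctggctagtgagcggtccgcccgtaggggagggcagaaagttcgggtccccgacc

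The sequences differ in composition, with 47.6% G and C and 4 CG pairs in Prrx1 against 70% and 21 in Prrx2, where the median over all 32851 promoter entries is 52.4% G and C. Prrx1 holds 1 TAATTA, which begins 173 bases before the start, a motif found in 4.84% of all windows of this length. Neither window holds CAGGTG, which occurs in 17.2% of them. A match is a description of the letters and not a binding site.

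Markers of other cell types were read on the same arrays. The level of 100 used for these and later lists lies above the median of all values (54.5), so staying under it is common. Its share over all genes is not given here, and counts under it do not show absence. Among 15 measured markers of macrophages and other blood cells, 1, the leukocyte tetraspanin gene Cd53, was at least 4-fold higher in colonic replicate 2 than on each other array, beside 0.217% of all genes. Cd53 was at 14.0 and 15.7 in the bone marrow lines and at 155 and 1333 in colon, and its other probe set reached 39.8. The summed intensity of that list was 3707 and 1422 in the bone marrow lines and 2086 and 3215 in colon, and 9 of the 15 markers stayed under 100 on every array. Among those 9 were Ptprc, the pan-leukocyte gene CD45, between 19.3 and 28.6, and the macrophage adaptor gene Tyrobp, between 1 and 2.15. The other 6 exceeded 100 on at least 1 array. Cd14, a lipopolysaccharide receptor gene, lay between 573 and 963, Csf1r, the receptor of macrophage colony-stimulating factor, between 148 and 324, and Mpo, myeloperoxidase, between 115 and 148. Lyz2, lysozyme, was at 1589 and 31.7 in the bone marrow lines and at 150 and 590 in colon, and Fcer1g, an Fc receptor chain, at 640 and 59.0 against 43.2 and 59.6. The blood cell markers above 100 thus included genes seen in every line and genes seen in single lines. Of 8 endothelial markers 8 stayed under 100 on every array, Pecam1 among them between 1 and 2.48, with sums of 210, 143, 285 and 217 in the order of bone marrow replicates 1 and 2 and colonic replicates 1 and 2. Of 6 measured markers of enteric glia and neurons, 4 (Sox10, S100b, Gfap and Elavl4) stayed under 100 on every array. The list summed to 1060, 402, 1000 and 323 in that order, and high values came from Ret, a neurotrophic receptor gene, in bone marrow replicate 1 (860) and from Uchl1, a neuronal deubiquitinase gene, in colonic replicate 1 (814).

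Smooth muscle genes, some of which cultured stromal cells also express, differed between the lines. The 8 measured genes summed to 39789, 25581, 50205 and 42809 in that order. Acta2, smooth muscle actin, lay between 15980 and 17010. Myh11, the smooth muscle myosin heavy chain, was at 41.3 and 16.7 in the bone marrow lines, at 1123 in colonic replicate 1 and at 43.4 in colonic replicate 2. Des, desmin, was at 52.4 and 25.1 against 2379 and 47.9. Cnn1, calponin, was at 8623 and 33.0 in the bone marrow lines and at 11529 and 8477 in colon. The colonic lines thus also differed in Myh11 and Des, which were high in the line with the higher Prrx values, and Cnn1 was low in bone marrow replicate 2 alone. At least 2-fold higher in colon without overlap were 2 of the 8, Myh11 and Synpo2, beside 4.25% of all genes. Myh11 met this rule through colonic replicate 1, since colonic replicate 2 (43.4) was close to bone marrow replicate 1 (41.3). Actg2, another smooth muscle actin, was at 8763 and 7332 in the bone marrow lines and at 11568 and 12248 in colon. It was the 1 of the 8 with an unadjusted limma p below 0.05, beside 3.66% of all genes toward colon. The median log2 difference of the list was 1.64, against 0.01 over all genes, and ranged from 0.32 to 2.38 with an array left out. The part of other cells in the Prrx and Tcf4 values was not tested beyond this.

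Surface markers of MSC had 11 tested members, of which 3 had an unadjusted p below 0.05 toward colon and 3 toward bone marrow, beside 3.66% and 2.9% of all genes. Vcam1, a cell adhesion molecule of stromal cells, was the 1 at least 4-fold lower in colonic replicate 2 than elsewhere, beside 0.603% of all genes. Vcam1 was at 2206 and 2535 in the bone marrow lines and at 2281 and 266 in colon, and its 2 other probe sets had the same array lowest. Thy1, an MSC surface glycoprotein, had almost no signal in the bone marrow lines, at 32.8 and 22.0, against 4516 and 9032 in the colonic lines. Nt5e, the surface enzyme CD73, was low in replicate 2 of each tissue, at 76.3 and 27.9 in the bone marrow lines and at 209 and 27.6 in colon. Eng, the MSC marker endoglin, was at 1323 and 445 against 330 and 1035. Alcam, an adhesion molecule, was at 217 and 119 against 2140 and 37.0, and Mcam, another, at 328 and 48.7 against 1717 and 1704. Cd44, Itgb1, Pdgfrb and Cd9 were at 2088 or above on every array. Cd9 (7607 and 5393 against 3838 and 2088) and Pdgfrb (5042 and 4686 against 3377 and 3844) were lower in both colonic lines. Itgb1 (5396 and 5338 against 7839 and 6346) and Cd44 (6043 and 4867 against 8532 and 6512) were higher in both. The genes with an unadjusted limma p below 0.05 were Thy1, Mcam and Itgb1 toward colon, and Pdgfra, Cd9 and Pdgfrb toward bone marrow. Pdgfra was at 1609 and 2493 in the bone marrow lines and at 492 and 743 in colon. Its other probe sets were also lower in both colonic lines. The markers thus bore out the label as MSC unevenly. Thy1 was low in both bone marrow lines and Nt5e in replicate 2 of each tissue. Mcam was lower in both bone marrow lines than in both colonic lines, and lowest in bone marrow replicate 2. Alcam was far higher in colonic replicate 1 than in any other line, and lowest in colonic replicate 2. Cd44, Itgb1, Pdgfrb and Cd9 were high in every line, though not equal between the tissues. The identity of the cells was not tested further.

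Tcf4 had 6 probe sets, and in each of them both colonic arrays lay below both bone marrow arrays. The brightest, 1416723_at, was at 3997 and 4706 in the bone marrow lines and at 2373 and 1689 in colon. Its means were 4351 ± 501 and 2031 ± 483 (SD, n = 2), a ratio of 2.14, and the log2 difference was -1.11 ± 0.25 (SE, limma adjusted p = 0.536). Bone marrow replicate 2 was the highest array and colonic replicate 2 the lowest in this probe set.

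Probe set 1434148_at was at 1567 and 2130 in the bone marrow lines and at 1015 and 684 in colon, and 1434149_at, annotated with the same sequence record, at 916 and 1357 against 641 and 394. Probe set 1416724_x_at was at 1180 and 1421 in the bone marrow lines and at 857 and 505 in colon, and its suffix marks probes that may also bind other transcripts. Probe set 1424089_a_at was at 648 and 811 in the bone marrow lines and at 469 and 264 in colon. The dim 1416725_at was at 61.5 and 44.0 in the bone marrow lines and at 38.9 and 17.4 in colon. The bone marrow replicates change places in this dim probe set, but the colonic replicates keep their order in all 6.

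The tissue means of the 6 Tcf4 probe sets differed by 1.87-fold to 2.20-fold, and the closest arrays of the tissues by 1.13-fold to 1.68-fold. Their log2 differences ranged from -1.13 to -0.71, with limma adjusted p between 0.536 and 0.975, so Tcf4 did not pass over all probe sets. Without colonic replicate 2 they ranged from -0.87 to -0.32. The tissue difference of Tcf4 was thus smaller than the step within the colonic lines in Prrx1, though it had the same direction in both colonic lines.

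**Figure D2:**
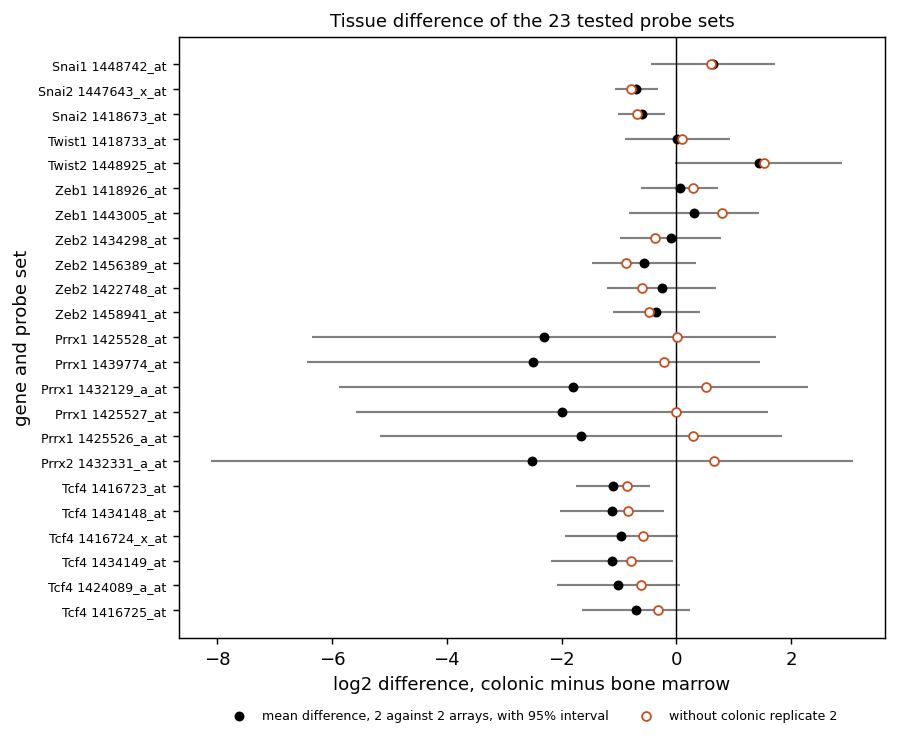
Log2 difference, colonic minus bone marrow, of the 23 tested probe sets, with black points for the mean of 2 against 2 arrays, grey lines for the 95% interval of limma and open orange points for the value without colonic replicate 2. Prrx1 and Prrx2 have the widest intervals and lie between -0.22 and 0.65 without that array, while Tcf4 and Snai2 stay below 0 either way.

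Snai2, which encodes Slug, had 2 probe sets. Probe set 1447643_x_at was at 6622 and 6198 in the bone marrow lines and at 3691 and 4206 in colon, and 1418673_at at 5166 and 4791 against 3086 and 3467. Both colonic arrays lay below both bone marrow arrays in each. The means of 1418673_at were 4978 ± 265 and 3276 ± 269 (SD, n = 2), and the log2 differences were -0.70 ± 0.14 and -0.60 ± 0.16 (SE). These were the smallest standard errors of the members, and the first gave the lowest limma adjusted p among them, 0.459, which does not pass.

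Snai1, the Snail gene itself, was dimmer on its 1 probe set, at 343 and 181 in the bone marrow lines and at 388 and 409 in colon. The colonic arrays lay just above the bone marrow arrays, with a log2 difference of 0.65 ± 0.41 (SE, limma adjusted p = 0.990). Bone marrow replicate 2 was the low array and the other 3 were close to each other. The signs of Snai1 and Snai2 were opposite, and neither difference passed.

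The 250 bases before the start of Snai1 are shown because they hold the E-box CAGGTG, a sequence that Snail, ZEB and E proteins are known to bind in target genes. Capitals mark it as CACCTG, its form on the printed strand, which begins 126 bases before the start.
Snai1, chr2:167537945-167538194, plus strand: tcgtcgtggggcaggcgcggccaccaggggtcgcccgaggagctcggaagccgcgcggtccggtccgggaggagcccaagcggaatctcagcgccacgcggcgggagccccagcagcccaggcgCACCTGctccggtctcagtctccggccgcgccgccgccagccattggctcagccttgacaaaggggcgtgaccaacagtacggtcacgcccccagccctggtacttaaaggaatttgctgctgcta

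Of the 9 genes, 6 had a promoter entry that could be searched, and in the windows of the others, Twist1, Twist2 and Zeb2 (4 windows), neither motif was present. This says only that these letters are not in these windows.

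Twist2 was the member with the largest difference toward colon. It was at 421 and 1205 in the bone marrow lines and at 2092 and 1818 in colon, with means of 813 ± 554 and 1955 ± 194 (SD, n = 2). The bone marrow lines differed from each other by more than the closest arrays of the tissues, which were 1.51-fold apart. Its log2 difference was 1.43 ± 0.55 (SE), with a 95% interval from -0.019 to 2.88 and a limma adjusted p of 0.890. Without bone marrow replicate 1, the low array, the difference was 0.69.

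Twist1, its paralogue, was at 1439 and 890 in the bone marrow lines and at 1216 and 1081 in colon. Both colonic values lay between the bone marrow values, and the log2 difference was 0.02 ± 0.35 (SE), with a 95% interval from -0.89 to 0.93. The interval leaves room for differences of nearly 2-fold in either direction.

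Zeb1 had 2 tested probe sets. Its bright probe set 1418926_at was at 3470 and 2659 in the bone marrow lines and at 3697 and 2703 in colon, a log2 difference of 0.06 ± 0.26 (SE). In 1443005_at colonic replicate 1 was highest, at 327, and the others lay between 161 and 195. Replicate 1 was the higher array of both tissues in both probe sets. Its other probe sets, 1420243_at and 1446127_at, had no value above 16.7.

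Zeb2, the paralogue of Zeb1, had 4 tested probe sets with log2 differences from -0.57 to -0.10 and a limma adjusted p of 0.990 in each. The brightest, 1434298_at, was at 1103 and 1445 in the bone marrow lines and at 971 and 1423 in colon, so that the tissues overlapped. Probe set 1456389_at was at 1017 and 1194 in the bone marrow lines and at 596 and 911 in colon, with no overlap. Of the 2 dimmer probe sets, 1458941_at had no overlap (121 and 145 against 91.2 and 111) and 1422748_at did (139 and 163 against 94.7 and 161). Colonic replicate 1 was the lowest array in each of the 4, and replicate 2 was the higher array of both tissues, the reverse of Zeb1.

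Around these factors, 137 genes of the fixed lists were tested by their brightest probe set, and 0 passed a limma adjusted p of 0.05 over all probe sets. Among 9 tested bHLH partners and Id genes, 0 had an unadjusted p below 0.05 in either direction, beside 6.56% of all genes. Id proteins lack a DNA-binding region and hold bHLH factors inactive. The median log2 difference of these 9 was -0.05, against 0.01 over 12930 genes. Tcf12, an E protein that pairs with Twist proteins, was at 4746 and 5460 in the bone marrow lines and at 3948 and 5083 in colon. Tcf3, the E protein E2A, was at 1705 and 2571 against 641 and 2059, and its 2 other probe sets also had colonic replicate 1 lowest. Tcf4 was thus the E protein whose tissues did not overlap, and a difference between the E proteins was not tested.

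Hand2, a bHLH factor of heart and limb mesenchyme, stood out by line, at 1 and 6.66 in bone marrow, 7 in colonic replicate 1 and 756 in colonic replicate 2. Its 2 other probe sets reached 55.0 and 4.61 at most, so the signal rests on 1 probe set. Id4, chosen after its values were seen, was high in replicate 1 of each tissue, at 585 and 74.5 in the bone marrow lines and at 2519 and 191 in colon, and so were its 2 other probe sets. The line that was lowest in the Prrx genes was therefore the highest in this probe set of Hand2.

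**Figure D3:**
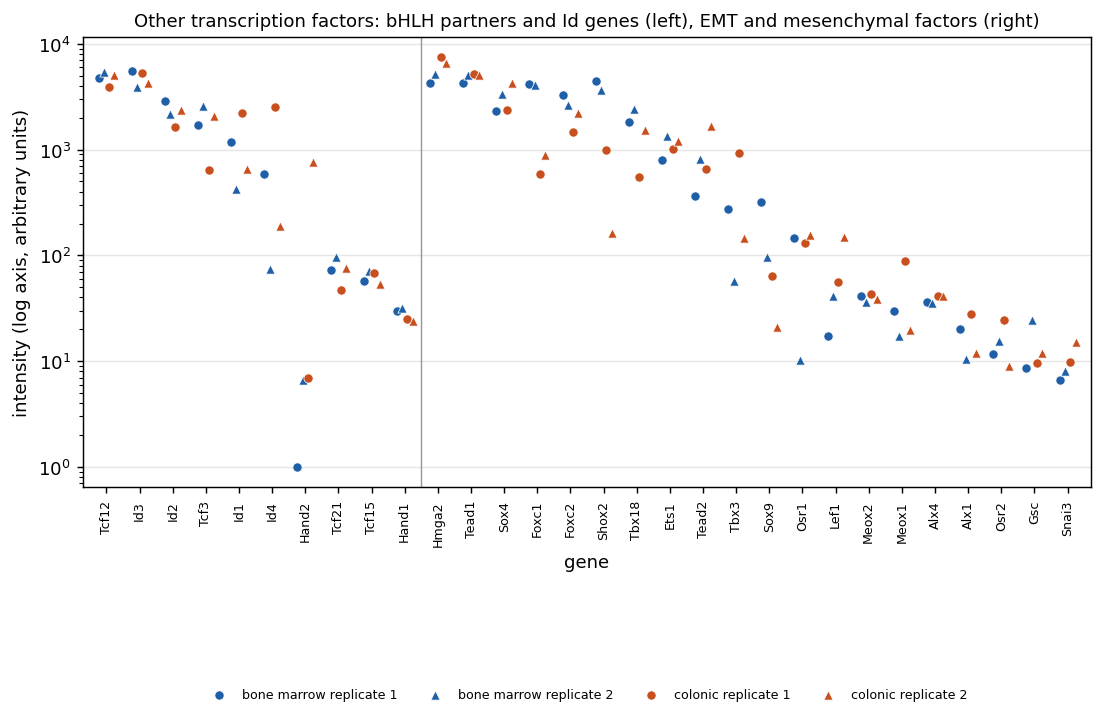
Intensity (log axis, arbitrary units) of the brightest probe set of each bHLH partner or Id gene (left of the line) and of each further EMT or mesenchymal factor (right), with bone marrow lines in blue, colonic lines in orange, circles for replicate 1 and triangles for replicate 2. Hand2 is high in colonic replicate 2 alone (756), Shox2 is lowest there (164), and both colonic points of Foxc1 lie below both bone marrow points.

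Further EMT and mesenchymal transcription factors had 16 tested members, of which 1 had an unadjusted p below 0.05 toward colon and 3 toward bone marrow, beside 3.66% and 2.9% of all genes. At least 2-fold without overlap were 1 higher and 4 lower in colon, beside 4.25% and 2.75% of all genes. Foxc1, a forkhead factor of mesoderm, was at 4213 and 4098 in the bone marrow lines and at 593 and 898 in colon. Shox2, a homeobox gene of limb mesenchyme, was at 4436 and 3627 in the bone marrow lines and at 981 and 164 in colon, and its other probe set at 161 and 119 against 37.2 and 5.24. Shox2 was the 1 gene of this list that was at least 4-fold lower in colonic replicate 2 than on each other array, beside 0.603% of all genes. Sox9, the cartilage factor, was at 323 and 96.5 against 63.8 and 21.1, and Hmga2, a chromatin protein, at 4273 and 5239 against 7441 and 6610.

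The corepressors and chromatin partners of the members showed no such differences. Of 16 tested genes, 0 were at least 2-fold apart without overlap, 0 had an unadjusted p below 0.05, and the median log2 difference was -0.04. Ctbp1, a corepressor of ZEB proteins, lay between 6689 and 7229, and Kdm1a, the demethylase LSD1 that Snail recruits, between 2447 and 3279. The lowest p belonged to Yap1, at 4509 and 4925 in the bone marrow lines and 6708 and 5640 in colon. Among 14 genes of Snail turnover and modification the counts were also 0 and 0, beside the same shares of all genes, with a median of -0.08. Gsk3b, the kinase that marks Snail for degradation, lay between 1703 and 1970, and Loxl3, a lysyl oxidase that binds Snail, was at 8824 and 6932 in the bone marrow lines and at 6724 and 3893 in colon.

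Of 21 measured genes of the mesenchymal state and its matrix, 1, the proteoglycan gene Spock1, stayed under 100 on every array, and Fap, fibroblast activation protein, lay between 33.9 and 104. Vim, the intermediate filament vimentin, lay between 15815 and 16159, and Cdh2, N-cadherin, between 2141 and 2556. Of the 21, all tested, 2 had an unadjusted p below 0.05 toward colon and 1 toward bone marrow, beside 3.66% and 2.9% of all genes, and the median log2 difference was 0.06. Tnc, the matrix protein tenascin C, was at 3099 and 2014 in the bone marrow lines and at 12583 and 6606 in colon. Cdh11, a cadherin of mesenchymal cells chosen after its values were seen, was at 5511 and 1361 in the bone marrow lines and at 5087 and 1098 in colon, high in replicate 1 of each tissue.

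Epithelial genes that these factors are known to repress ranged from near the floor to bright in both tissues. Of 31 measured, 18 had no value above 100 on any array, a level above the median of all values (54.5), and 19 passed the filter. Among the brighter ones, chosen after their values were seen, Pkp2 lay between 3317 and 3903 and Pals1 between 1131 and 1673. Jup was at 327 and 191 in the bone marrow lines and at 1226 and 237 in colon. Krt7 was at 657 and 250 against 39.4 and 392, and Dsp at 64.3 and 11.9 against 311 and 13.4. Cdh1, E-cadherin, lay between 30.0 and 44.8 and Epcam, the epithelial adhesion molecule, between 8.97 and 19.6. Krt19, a keratin, was the 1 gene of this list at least 4-fold lower in colonic replicate 2, beside 0.603% of all genes. Krt19 was at 6223 and 5083 in the bone marrow lines and at 1890 and 105 in colon. Llgl2, a polarity gene, was at 24.7 and 27.7 against 184 and 117, and Cldn1, a tight junction gene, at 73.7 and 298 against 4.51 and 20.9. An unadjusted p below 0.05 was reached by 1 gene toward colon and 2 toward bone marrow of the 19, beside 3.66% and 2.9% of all genes, and the median log2 difference was 0.02. The summed intensity was 12954 and 11977 in the bone marrow lines and 10323 and 6592 in colon.

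**Figure D4:**
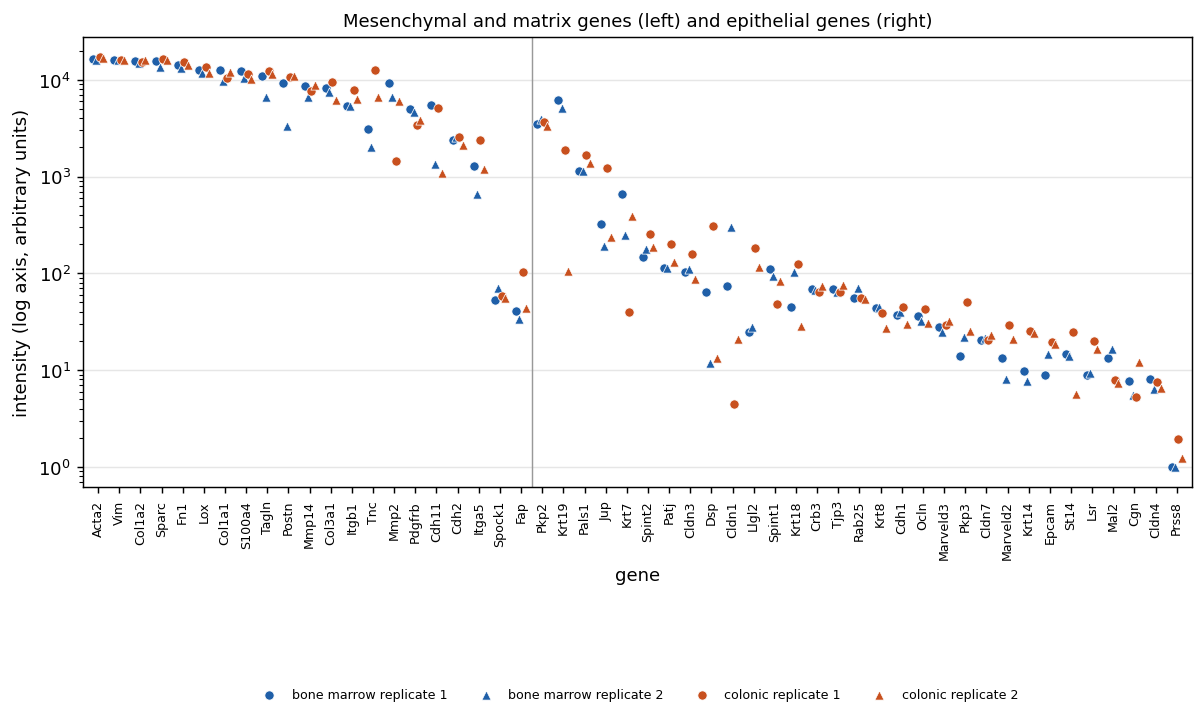
Intensity (log axis, arbitrary units) of the brightest probe set of each mesenchymal or matrix gene (left of the line) and each epithelial gene (right), with bone marrow lines in blue, colonic lines in orange, circles for replicate 1 and triangles for replicate 2. Of the 21 mesenchymal genes most lie above 1000 on every array, while Cdh1 stays between 30.0 and 44.8 and Krt19 spans 105 to 6223.

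Epithelial transcription and splicing factors had 11 tested members of 16, and 10 had no value above 100. Grhl1, a grainyhead factor, was the 1 with an unadjusted p below 0.05, beside 3.66% of all genes toward colon, at 19.6 and 21.4 in the bone marrow lines and at 60.3 and 35.3 in colon, all near the floor. Klf4, which is also active in stromal cells, was at 4322 and 2998 against 2633 and 2080. Trp63, a basal epithelial factor, was at 51.2 and 328 in the bone marrow lines and at 23.1 and 17.6 in colon, while its 3 other probe sets did not exceed 59.1.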

How the data were processed

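Per the labels' protocols, total RNA of each line was amplified with RiboAmp, given a biotin label and run on an Affymetrix mouse array. The deposited table holds the authors' probe set intensities, read as linear because no value is negative and the highest is 20912. How the authors summarised probes, corrected background and scaled arrays is not given in the sources used here, and between 981 and 1016 values per array are exactly 1. Of 45101 probe sets, 64 array controls were left out. Platform annotation gave 1 symbol to 34945 of the rest, several to 932 and none to 9160.

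Intensities were put on a scale of log2(intensity + 13.6), the added value being 0.25 of the median of all values (54.5), which understates ratios near the floor. Probe sets with a mean above the 40th percentile (33.3) were kept, so a gene with little signal in 1 tissue could pass through the other. Tissues were compared over all 27022 kept probe sets with limma 3.58.1 in R 4.3.3 (lmFit, eBayes with an intensity trend, tissue as the only term, 2 residual and 2.69 prior degrees of freedom), with two-sided p-values adjusted by Benjamini and Hochberg over all of them. No exact permutation test was run, since 2 lines against 2 allow no p under 0.333. The labels call the arrays biological replicates. Where a list gene has several probe sets, the brightest stands for it, and 1 list gene was matched by an older symbol.

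The members and lists were chosen with earlier results of these data known. Genes named were the 9 members, up to 4 genes of a list in the order of unadjusted p, Cdh1, Epcam, Vim and Cdh2; others, such as Tcf12, Id4, Cdh11, Ctbp1, Kdm1a, Gsk3b, Spock1, Fap and the cell type markers, were chosen after their values were seen. Promoter sequences are RefSeq's (GRCm38.p6), and those of 3 members are not used here. In simulated data from the 27022 probe sets (20 draws, 200 changed in each), 34.6% of changes of 2 and 88.8% of changes of 4 on the log2 scale passed. The simulated spreads were drawn regardless of intensity and moved toward the median spread. Large spreads were thereby reduced, so these rates need not hold for the real arrays. Alternatives were scaling, pseudocount, filter, 1 probe set per gene, the prior, a replicate block and each array left out.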

Additional observations from a re-analysis of the deposited data

How the results depend on the processing

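The absence of members past the adjusted p of 0.05 held under the 10 other alternatives and changed with 1 array left out, where the count ranged from 0 to 2, both from Prrx1 without colonic replicate 1. Over all probe sets the count was 12 with a filter at the 60th percentile and from 0 to 96 with an array left out (70 and 96 without colonic replicates 1 and 2). Among list genes it was 1, Thy1, with that filter, and from 0 to 5 with an array left out. The 5 without colonic replicate 1 were Hand2, Shox2, Krt19, Thy1 and Cd53, and without colonic replicate 2 there were 2, Thy1 and Des. Of 306 recomputed member differences 290 kept their direction and call, 14 changed sign and 2 newly passed. The settings of filter, 1 probe set per gene, prior and replicate block leave the difference itself as it was. Under them only the call could change, so the count that kept direction overstates stability. With median centring, Twist1 was at -0.0016. With an array left out, Twist1 ranged from -0.32 to 0.36, Zeb1 from -0.17 to 0.28 (1418926_at) and from -0.17 to 0.79 (1443005_at), and Zeb2 from -0.37 to 0.17 (1434298_at) and from -0.60 to 0.092 (1422748_at). Prrx1 ranged from -4.64 to 0.017 (1425528_at), from -4.11 to 0.52 (1432129_a_at), from -3.98 to 0.00071 (1425527_at) and from -3.61 to 0.29 (1425526_a_at), and Prrx2 from -5.68 to 0.65. The low value in colonic replicate 2 held in 6 of 6 Prrx probe sets with other scaling and pseudocounts. Tcf4 kept 6 probe sets without overlap with other scaling, and 5 of them passed the stricter filter. The remaining alternatives could not have broken these patterns, since they keep the values or their order, or only take an array away. With the replicate number as a block, 0 members and 0 probe sets in all passed. The numbers are not said to pair lines, and deviations of same-numbered arrays correlated with r = 0.139 over probe sets. With 2 arrays a tissue, misses do not show equal levels, and values near the floor have little precision.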
